A study of Homo sapiens with 4 samples.

Results

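The long noncoding genes that host small nucleolar RNAs (snoRNAs) were examined in HaCaT cells after knockdown of ALKBH5. The 10 genes GAS5, ZFAS1, SNHG1, SNHG5, SNHG6, SNHG7, SNHG8, SNHG12, SNHG15 and SNHG16 were taken by their symbols from the 58735 genes of the deposited tables, by a rule that uses no measured value. The choice of these symbols was made with earlier results of these data known. HaCaT is an immortalised line of human keratinocytes, given in the labels as wild type, and ALKBH5 is an enzyme that removes N6-methyladenosine (m6A) from RNA. Cells of both groups were transfected with 200 pmol of siRNA by a lipid reagent, with a negative control siRNA in siControl and an siRNA against ALKBH5 in siALKBH5. RNA with a poly-A tail was sequenced from 2 libraries per group. All 4 libraries therefore come from this line, and nothing in the sources says that the duplicates were separate cultures, so the p-values measure the spread between libraries, which may be technical.

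A snoRNA host is transcribed as an ordinary RNA polymerase II gene, and its snoRNAs are cut out of its introns after splicing. C/D snoRNAs guide 2′-O-methylation and H/ACA snoRNAs guide pseudouridylation of ribosomal and spliceosomal RNA. The spliced host RNA has little coding capacity. GAS5 RNA and several of its relatives are known targets of nonsense-mediated decay (NMD), the pathway that removes RNAs with an early stop codon. Many hosts start with a 5′ terminal oligopyrimidine (TOP) tract, as do the genes of ribosomal proteins. The poly-A libraries measure host RNA with a poly-A tail and not the snoRNAs that leave its introns. The annotated exons of all transcripts cover 3756 of 3927 bases in SNHG1 but 2806 of 17799 in SNHG5. RNA that keeps an intron can therefore be counted where another transcript has an exon.

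The annotation of the tables (GENCODE 29, GRCh38) places 26 snoRNA entries inside 9 of the 10 genes on the same strand. SNHG1 holds 7 of them and SNHG12 holds 5, while GAS5, a well-known host of C/D snoRNAs, holds 0 in this annotation. Some entries repeat a place, so the 5 of SNHG12 lie at 4 places and the 4 of SNHG7 at 2. By the entries' names, ZFAS1, SNHG1, SNHG5, SNHG6 and SNHG16 are C/D hosts, SNHG7, SNHG8 and SNHG15 are H/ACA hosts, and SNHG12 hosts both kinds. An example of each kind is printed in the sense of its host, from GENCODE 29 on GRCh38, because the box motifs are what sets the classes apart. Capitals mark the C box (TGATGA) and the D box (CTGA) of the C/D snoRNAs and the ACA box of the H/ACA snoRNA. SNORD50B lies in SNHG5 at chr6:85677589-85677658 on the minus strand, SNORD12C in ZFAS1 at chr20:49278940-49279028 on the plus strand, and SNORA17A in SNHG7 at chr9:136726747-136726879 on the minus strand.
SNORD50B: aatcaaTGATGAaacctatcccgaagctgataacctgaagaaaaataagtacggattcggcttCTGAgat
SNORD12C: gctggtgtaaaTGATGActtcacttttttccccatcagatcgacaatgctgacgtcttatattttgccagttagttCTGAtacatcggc
SNORA17A: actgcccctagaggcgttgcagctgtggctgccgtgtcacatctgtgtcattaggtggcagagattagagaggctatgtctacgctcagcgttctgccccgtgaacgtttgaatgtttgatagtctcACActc

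The starts of the hosts were read from RefSeq (GRCh38.p14), which holds a promoter for 8 of the 10 genes, all but SNHG6 and SNHG15. A TOP-like tract was defined as a C followed by at least 4 pyrimidines (C or T), with that C at most 10 bases from the start, searched on the strand of the gene only. It was found in 6 of the 8 genes (75%), all but GAS5 and SNHG1, against 33.3% of all 27305 promoters and 86.7% of the 75 TOP genes with a promoter. With the C exactly at the start the shares were 37.5% for the hosts, 4.04% for all promoters and 69.3% for the TOP genes. These starts lie 0 to 1259 bases from those in the deposited tables, so the windows describe the RefSeq start only. The RefSeq start of GAS5 lies 163 bases upstream of the gene in the deposited tables. Its window therefore holds no base of the counted gene, and whether GAS5 RNA starts with a tract cannot be read from it. Five-prime ends are shown for 3 hosts that fell and for SNHG1, whose window held no such tract. Of those not shown, GAS5 fell and had no tract in that upstream window, and SNHG8, SNHG12 and SNHG16 had a tract but did not pass the test below. Each window has 20 bases before the start and 30 from the start on, with every tract of that definition in capitals. They lie at chr6:85678704-85678753 (minus) for SNHG5, chr20:49278622-49278671 (plus) for ZFAS1, chr9:136728155-136728204 (minus) for SNHG7 and chr11:62855856-62855905 (minus) for SNHG1.
SNHG5: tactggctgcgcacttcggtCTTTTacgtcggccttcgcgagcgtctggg
ZFAS1: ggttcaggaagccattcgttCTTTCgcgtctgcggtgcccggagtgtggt
SNHG7: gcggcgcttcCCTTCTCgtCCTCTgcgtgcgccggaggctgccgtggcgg
SNHG1: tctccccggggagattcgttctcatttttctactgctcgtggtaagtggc

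ALKBH5 itself dropped from 1512 and 1576 counts in siControl cells to 956 and 816 after its siRNA, which left 55.5% of the siControl level (log2 fold change -0.85, SE 0.053, adjusted p = 6.4e-15 by edgeR's quasi-likelihood test). The libraries held 16017502 to 18837807 counts on genes. All 8 keratinocyte markers had at least 100 counts in every library, and their summed level was 17287 and 17685 CPM (counts scaled to a common library size) in siControl and 22914 and 22974 in siALKBH5. Markers of other cell types summed to 17.2 to 19.02 CPM for fibroblasts (5 genes, COL1A2 and PDGFRB at 0), 2.74 to 3.85 for melanocytes (4 genes, TYR at 0), 2.31 to 4.19 for leukocytes (4 genes) and 32.7 to 35.1 for endothelium (3 genes, PECAM1 with 0 or 1 count). Of the 8, KRT5, KRT14, KRT6A and DSP lay higher in both siALKBH5 libraries and carried the sum, while CDH1, TP63, ITGA6 and KRT17 lay lower in both. The part of these shifts in the hosts' values was not tested. In bulk RNA, fewer cells with a transcript and less of it per cell cannot be told apart.

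In siControl cells the 10 hosts ranged widely in level. Levels are compared between genes as CPM, TMM-scaled from here on, per kilobase of the listed gene length, which joins the exons of all annotated transcripts and so understates short spliced forms. GAS5, known as a growth-arrest transcript, led with 83.4 ± 0.757 CPM per kb (SD, n = 2). ZFAS1 and SNHG7 followed with 47.4 ± 1.48 and 46.8 ± 0.0141 CPM per kb, and their libraries overlapped, so these neighbours cannot be ordered. SNHG5 (39.1), SNHG6 (37.4), SNHG8 (32.2) and SNHG1 (18.1) came next. SNHG16 (6.02), SNHG15 (2.36) and SNHG12 (1.85) were lowest. Every other pair of neighbours in this order had siControl libraries that did not overlap, with n = 2 per group.

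The plot of levels shows all 10 genes in each library, without the length correction.

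**Figure D1:**
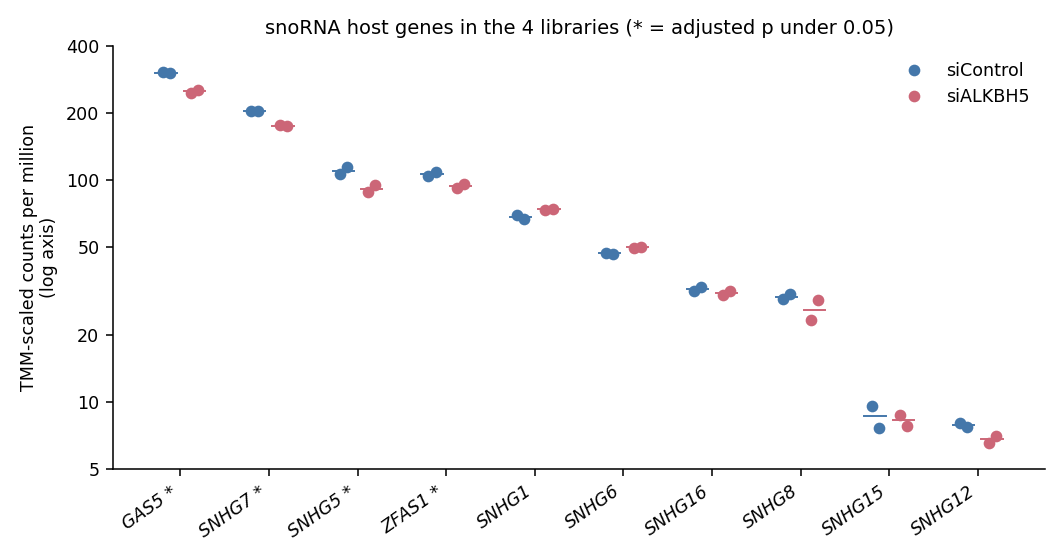
TMM-scaled CPM (log axis) of the 10 snoRNA host genes, ordered by siControl level; each point is a library (siControl blue, siALKBH5 red), bars are means of n = 2, and an asterisk marks an adjusted p under 0.05 in edgeR's quasi-likelihood test. The siALKBH5 points of GAS5, SNHG7, SNHG5 and ZFAS1 lie below both siControl points, while those of SNHG1 and SNHG6 lie slightly above them.

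The hosts GAS5, SNHG7, SNHG5 and ZFAS1 fell after ALKBH5 knockdown. All 10 genes passed the expression filter. With a call meaning an adjusted p under 0.05 in edgeR's quasi-likelihood test, 4 of them were lower and 0 were higher, and DESeq2 gave 0 higher as well. Over all 15075 genes tested, 17.3% were called lower and 19.3% higher. The decreases were modest and left 82.4% to 88.0% of the siControl level, and 0 of the 10 genes reached the study's additional threshold of a log2 fold change of 1 in size, which 1.3% of all genes passed downwards and 1.62% upwards. At an unadjusted p under 0.05, 5 hosts were lower and 1 was higher, against 21.4% and 22.7% of all genes tested. The median log2 fold change of the 10 genes was -0.20, against -0.01 over all genes tested.

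The 4 called hosts are those with the most counts. Among the 3455 genes with a mean of at least 1000 counts, a limit set after the values were seen, 25.8% were called lower and 37.3% higher. The 5 hosts in that range were GAS5, SNHG7, SNHG5, ZFAS1 and SNHG1, of which 4 were called lower. The 1614 long noncoding genes tested had a median of 25.3 counts, and 9.36% of them were called lower and 5.33% higher. Their median log2 fold change was -0.07.

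GAS5 (ENSG00000234741, chromosome 1 from 173863900 to 173868882, minus strand) is named for its accumulation in growth-arrested cells. Its siControl libraries gave 4911 and 5414 counts, and its siALKBH5 libraries gave 4598 and 4167. On the CPM scale these were 305 and 301 against 246 and 253, so the groups did not overlap and the gap was several times the spread within them. The mean fell from 303 ± 2.75 to 250 ± 4.97 CPM (SD, n = 2), to 82.4% of siControl (log2 fold change -0.28, SE 0.029, adjusted p = 1.6e-09, edgeR). It was the largest decrease among the 10 genes in log2 terms, and in replicate 1 and replicate 2 alone it was -0.31 and -0.25.

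SNHG5 (chromosome 6 from 85660950 to 85678748) is a C/D host whose annotated entry here is SNORD50B. Under control siRNA it reached 106 and 114 CPM (1706 and 2045 counts), and under ALKBH5 siRNA 87.6 and 94.9 CPM (1637 and 1561 counts). The groups did not overlap, although both varied more between libraries than GAS5. SNHG5 fell to 83.1% of siControl (log2 fold change -0.27, SE 0.046, adjusted p = 1.7e-05, edgeR).

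SNHG7 (chromosome 9 from 136721366 to 136728184), the H/ACA host of SNORA17A and SNORA17B, gave the closest duplicates within siControl. It had 203 and 204 CPM in siControl (3278 and 3662 counts) and 175 and 174 CPM in siALKBH5 (3277 and 2859 counts). Both siALKBH5 libraries therefore lay well below both siControl libraries. SNHG7 fell to 85.8% of siControl (log2 fold change -0.22, SE 0.033, adjusted p = 1.8e-06, edgeR).

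ZFAS1 (chromosome 20 from 49278178 to 49295738) hosts the 3 snoRNAs of the SNORD12 family and starts beside the gene ZNFX1 on the opposite strand. Its libraries held 104 and 109 CPM in siControl (1674 and 1954 counts) and 91.4 and 95.5 CPM in siALKBH5 (1707 and 1572 counts). This was the smallest of the 4 decreases, to 88.0% of siControl (log2 fold change -0.19, SE 0.044, adjusted p = 0.00091, edgeR), and the groups again did not overlap.

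SNHG1 and SNHG6 had means above siControl and were not called. SNHG1 (chromosome 11 from 62851988 to 62855914), with 7 entries the richest host here, had 69.3 and 66.5 CPM in siControl and 73.0 and 74.0 CPM in siALKBH5. Its log2 fold change was 0.11 (SE 0.050, adjusted p = 0.074, edgeR), with a 95% interval of 0.01 to 0.22 before adjustment over genes. SNHG6 (chromosome 8 from 66921684 to 66926398), a C/D host, had 46.9 and 46.4 CPM in siControl and 49.5 and 49.6 CPM in siALKBH5. In both genes the siALKBH5 libraries lay above the siControl libraries. The interval of SNHG6 ran from -0.04 to 0.21 around a log2 fold change of 0.09 (adjusted p = 0.28, edgeR).

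SNHG8 (chromosome 4 from 118278709 to 118279823), the H/ACA host of SNORA24, depended on its siALKBH5 duplicates. It had 29.05 and 30.46 CPM in siControl but 23.29 and 28.62 CPM in siALKBH5, the largest spread relative to its mean within the siALKBH5 group. The log2 fold change was -0.20 (SE 0.087, adjusted p = 0.065, edgeR), which did not pass the threshold. Without siALKBH5 replicate 1 it was -0.06 (adjusted p = 0.74), without siALKBH5 replicate 2 it was -0.35 (adjusted p = 0.0030), and without TMM scaling it was -0.23 (adjusted p = 0.044).

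The 3 hosts with the lowest levels per kilobase did not pass the test in either direction. SNHG16 (chromosome 17 from 76557766 to 76565348), the host of the SNORD1 family, had 31.6 and 33.0 CPM in siControl and 30.4 and 31.6 in siALKBH5, and its interval was -0.21 to 0.09 on the log2 scale. SNHG12 (chromosome 1 from 28578538 to 28583132) had 8.07 and 7.73 CPM against 6.53 and 7.05, with 116 to 139 counts per library. Its log2 fold change of -0.22 equals that of SNHG7 at 2 decimals, but its SE was 0.15 and its interval was -0.53 to 0.09 (adjusted p = 0.28, edgeR). SNHG15 (chromosome 7 from 44983023 to 44986961), the host of SNORA9, had 9.62 and 7.61 CPM against 8.73 and 7.78, so its groups overlapped and its interval was -0.35 to 0.25. SNHG12 and SNHG15 had 116 to 163 counts per library. The intervals of both include the value of GAS5 and 0, so neither a change of that size nor no change can be excluded in them. In all, the siALKBH5 libraries lay below both siControl libraries in 6 of the 10 hosts and above both in 2, against 33.5% and 32.8% of all genes tested.

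**Figure D2:**
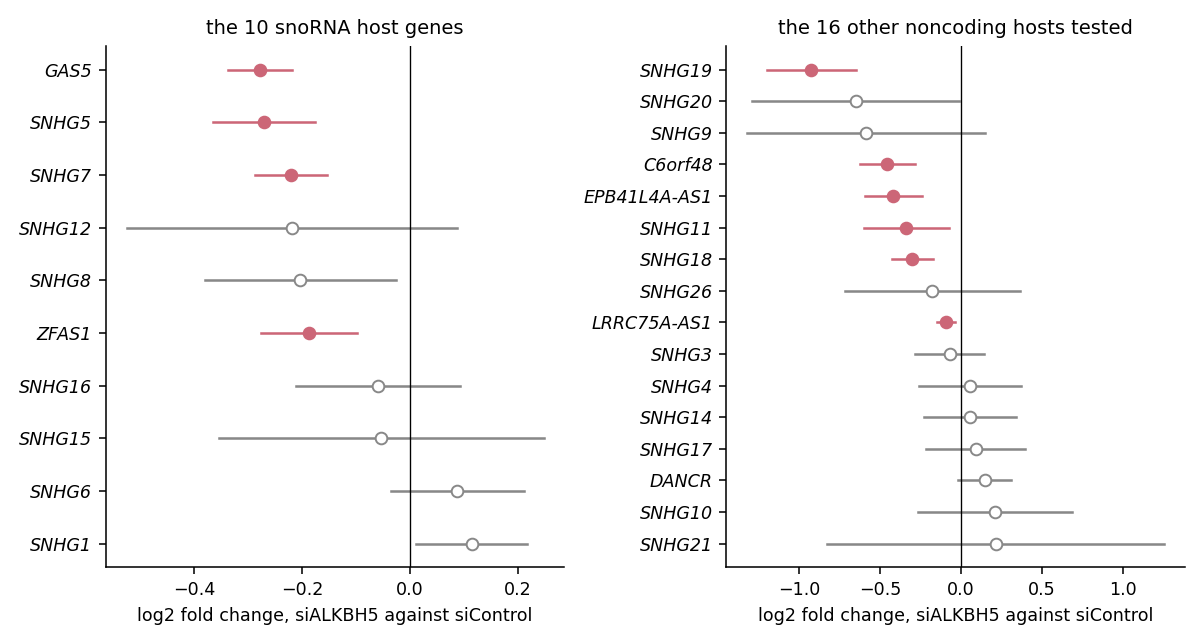
Log2 fold change of siALKBH5 against siControl with its 95% interval from edgeR's quasi-likelihood fit, for the 10 snoRNA host genes (left) and the 16 other noncoding hosts tested (right, on a wider axis); filled red points have an adjusted p under 0.05. The 4 called hosts lie between -0.28 and -0.19, and SNHG12 and SNHG15 have the widest intervals of the 10.

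The plot of change against depth sets these values in the whole table.

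**Figure D3:**
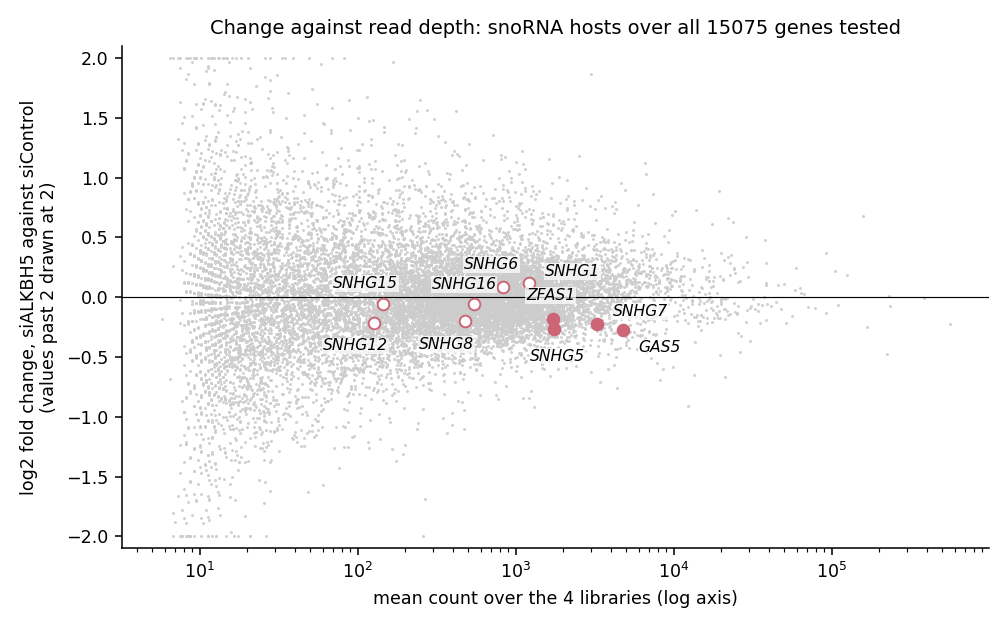
Log2 fold change of siALKBH5 against siControl (values past 2 drawn at 2) against the mean count over the 4 libraries (log axis) for all 15075 genes tested (grey) and the 10 snoRNA hosts (red rings, filled where the adjusted p is under 0.05). The 4 called hosts have means of 1727 to 4773 counts, and SNHG12 and SNHG15 have 127 and 146.

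Counts of the hosts relative to each other do not depend on how the libraries are scaled. SNHG1 was chosen as the denominator after its values were seen, and it had the highest log2 fold change of the 10 hosts (0.11). Division by its counts therefore lowers every ratio in siALKBH5, so these ratios are a description. The counts of GAS5 were 4.40 and 4.52 times those of SNHG1 in the siControl libraries and 3.37 and 3.42 times in the siALKBH5 libraries. SNHG7 went from 2.93 and 3.06 to 2.40 and 2.35 times the counts of SNHG1, SNHG5 from a mean of 1.62 ± 0.128 to 1.24 ± 0.0583, and ZFAS1 from a mean of 1.57 ± 0.0946 to 1.27 ± 0.0284 (SD, n = 2). The libraries of the 2 groups were separate for each of these 4 ratios, and also for SNHG8 (0.419 and 0.458 against 0.319 and 0.387) and SNHG16 (0.456 and 0.495 against 0.416 and 0.427), which were not called. On the CPM scale the groups of SNHG16 overlapped. SNHG6 kept nearly the same ratio to SNHG1, at 0.677 and 0.698 in siControl and 0.678 and 0.671 in siALKBH5. The fitted difference of log2 fold changes between GAS5 and SNHG1 was -0.39, with an SE of 0.058 from the separate SEs of the 2 genes, and between SNHG6 and SNHG1 it was -0.03 (SE 0.079).

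**Figure D4:**
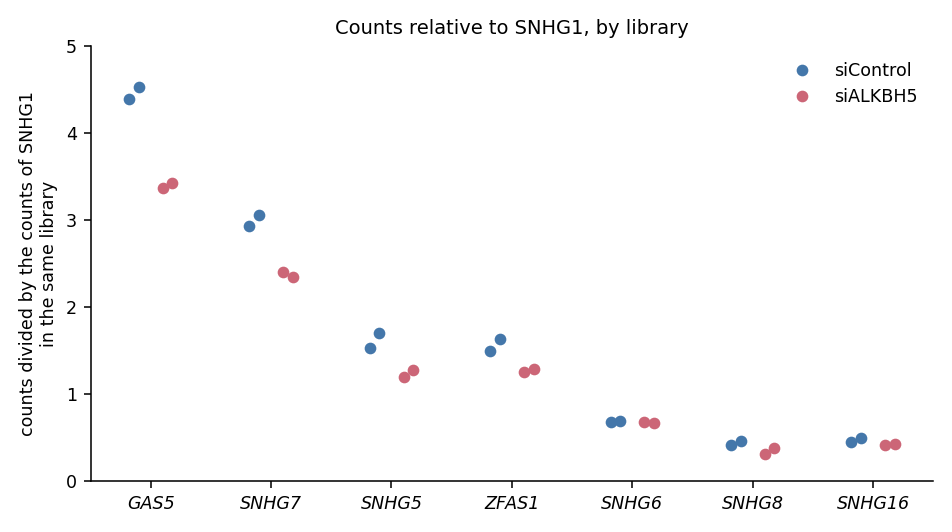
Counts of 7 snoRNA hosts divided by the counts of SNHG1 in the same library, from 0 on a linear axis; each point is a library (siControl blue, siALKBH5 red). The ratio of GAS5 lies at 4.40 and 4.52 in siControl and at 3.37 and 3.42 in siALKBH5, while the 4 points of SNHG6 lie between 0.671 and 0.698.

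As a sum, the 10 hosts had 918 and 924 CPM in siControl and 785 and 808 CPM in siALKBH5, here over library totals without TMM. GAS5, SNHG7, SNHG5 and ZFAS1 made up 78.7% and 79.1% of that sum in siControl and 75.8% and 75.7% in siALKBH5. The sum therefore mostly follows these 4 genes. By snoRNA class, 2 of the 5 C/D hosts (ZFAS1 and SNHG5) and 1 of the 3 H/ACA hosts (SNHG7) were called lower, and the median log2 fold changes were -0.06 and -0.20. GAS5 is outside this tally because it has no entry in the annotation, and with it as a C/D host 3 of 6 were called lower, with a median of -0.12. With so few genes the classes were not compared by a test.

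The snoRNA entries themselves carried almost no counts. Of the 26, 22 overlap an annotated exon of their host and had 0 counts in all 4 libraries, and the other 4 had 5 or 6 counts in all (SNORD12C 6, SNORD12B 5, SNORD99 5 and SNORD1B 5). The C/D snoRNA SNORD50B and the H/ACA snoRNA SNORA17A printed above are among the 22. Counts that would fall on a snoRNA entry and a host exon together may have been left out of both, since how such reads were treated is not given in the sources used here. No level of a mature snoRNA can be read from these libraries.

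Several hosts share exon sequence with a gene on the opposite strand, and whether reads were counted by strand is not given. SNHG16 shares 1639 of its 5362 exonic bases with AC015802.6, which had only 37 to 73 counts per library and was called lower (log2 fold change -0.71, SE 0.25, adjusted p = 0.025, edgeR). SNHG7 shares 1094 of 4345 bases with FAM69B, which had 40 to 72 counts and was not called (adjusted p = 0.33). SNHG6 shares 365 of 1247 bases with MCMDC2, which had 39 to 59 counts and was not called (adjusted p = 0.25). ZFAS1 shares 249 bases with ZNFX1, and ZNFX1 rose (log2 fold change 0.22, SE 0.039, adjusted p = 2.6e-05, edgeR), opposite to ZFAS1. GAS5 shares 42 bases with GAS5-AS1 (27 to 36 counts, adjusted p = 0.74) and 0 exonic bases with ZBTB37 (adjusted p = 0.28). SNHG12 shares 8 bases with TRNAU1AP (log2 fold change 0.25, adjusted p = 0.046, edgeR). The part of these overlaps in the hosts' values was not tested.

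The sequence GGACT, a common form of the m6A consensus, was counted on the sense strand of the longest annotated transcript of each host. There were 5 in SNHG7 and SNHG16, 3 in SNHG1, SNHG8, SNHG12 and SNHG15, 1 in GAS5 and SNHG5, and 0 in ZFAS1 and SNHG6. Thus the 4 hosts that fell held 5, 1, 1 and 0. Per kilobase the median over the 10 genes was 1.03, against 0.92 over the 15068 tested genes with a transcript sequence and 0.92 over the long noncoding genes. At least 1 match was present in 80% of the hosts, in 90.1% of the tested genes and in 75.8% of the long noncoding genes. A match is not a methylated site, and methylation was not measured here.

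The other noncoding snoRNA hosts also moved downwards where they were called. Of 21 listed entries, 16 were tested. Of these, 6 were called lower (37.5%) and 0 higher, against 17.3% and 19.3% of all genes tested. At an unadjusted p under 0.05 and by DESeq2 0 were higher as well, and the median log2 fold change of the 16 was -0.13. Over the same 16 the median was -0.22 without siControl replicate 2 and -0.13 with the DESeq2 size factors in edgeR. It was -0.07 by DESeq2 and -0.06 without the expression filter, but over 19 entries. Those 19 include entries with at most 10 counts in any library, so these medians differ in their genes as well as in the method. SNHG19 fell most, from 232 and 274 counts in siControl to 165 and 110 in siALKBH5 (14.8 ± 0.587 against 7.76 ± 1.52 CPM, SD, n = 2). Its log2 fold change of -0.92 (SE 0.13, adjusted p = 1.1e-06, edgeR) was larger in size than that of any of the 10 hosts. C6orf48, annotated as protein coding in this release, fell by 0.46, EPB41L4A-AS1 by 0.42, SNHG11 by 0.34, SNHG18 by 0.30 and LRRC75A-AS1 by 0.09 on the log2 scale. LRRC75A-AS1 was the most abundant, with 418 ± 16.8 CPM in siControl and 391 ± 5.17 in siALKBH5 (SD, n = 2).

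The other 10 tested entries were not called. SNHG20 (log2 fold change -0.65, 23 to 44 counts) and SNHG9 (-0.59, 18 to 29 counts) had lower means and wide errors. DANCR, a noncoding host with 440 to 539 counts, had a value of 0.14 (SE 0.080, adjusted p = 0.16). SNHG26, SNHG3, SNHG4, SNHG14, SNHG17, SNHG10 and SNHG21 ranged from -0.18 to 0.21. The 5 entries left out by the filter, SNHG22, SNHG25, MEG8 and the 2 of SNHG28, had at most 10 counts in any library.

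Genes of the pathways that make and remove host RNA are given next, from lists written by name. Of the 19 snoRNP proteins and assembly factors, 3 rose, 1 fell and 15 were not called. These shares, 15.8% and 5.26%, are below those over all genes tested, 19.3% and 17.3%. The chaperone RUVBL2, a subunit of the R2TP assembly complex, rose by a log2 fold change of 0.31 (SE 0.047, adjusted p = 3.6e-06, edgeR). SNU13, the protein that binds the k-turn of C/D snoRNAs, rose by 0.23 (adjusted p = 0.00083). The assembly factor ZNHIT6 had a log2 fold change of -0.29 (SE 0.11, adjusted p = 0.045, edgeR). That call was lost without siControl replicate 1 (adjusted p = 0.42), without siALKBH5 replicate 1 (0.060) and without siALKBH5 replicate 2 (0.15), and by DESeq2 (0.18). The C/D core proteins FBL, the methyltransferase, NOP56 and NOP58, and DKC1, the pseudouridine synthase, had log2 fold changes of 0.04, -0.10, -0.18 and -0.11 and were not called.

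NMD factors moved both ways, with 7 called lower (41.2%), 2 higher (11.8%) and 8 not called of 17, and a median of 0.02. Over all genes tested 17.3% were called lower and 19.3% higher. MAGOH, a core protein of the exon junction complex, and UPF3A fell by 0.57 and 0.34 on the log2 scale (adjusted p = 5.6e-05 and 5.4e-05, edgeR). SMG1, the kinase that phosphorylates UPF1, fell by 0.28 (SE 0.033, adjusted p = 2.5e-08, edgeR), although its counts may be shared with its many copies in the genome. The helicase UPF1 rose by 0.13 on the log2 scale (adjusted p = 0.0054, edgeR). The number called lower was 4 by DESeq2 and 4 without siControl replicate 2.

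Among the 93 tested TOP genes, 54 were called lower (58.1%), 14 higher (15.1%) and 25 not, with a median log2 fold change of -0.07. Over all genes tested 17.3% were called lower and 19.3% higher, and over genes with a mean of at least 1000 counts 25.8% and 37.3%. The TOP genes are mostly ribosomal proteins, with a median of 16303 counts per gene, far above the hosts. RPL26 fell from 4827 and 5105 counts to 4128 and 3444 (log2 fold change -0.44, SE 0.033, adjusted p = 5.9e-13, edgeR). RPSA and RPS2 rose by 0.31 and 0.24 on the log2 scale. Both have closely similar copies, so their counts are less certain. The median log2 fold change of the 10 hosts was -0.20. Values above 0 were found in 2 of the 10 hosts and in 20 of the 93 tested TOP genes. They were found in 7357 of all 15075 genes tested and in 1924 of the 3455 genes with a mean of at least 1000 counts.

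The protein-coding snoRNA hosts, taken by annotation, include C6orf48 and 1 entry of SNHG28, which are also among the other hosts above. Of the 194 tested, with a median of 1123 counts, 52 were called lower (26.8%) and 57 higher (29.4%), and the median log2 fold change was -0.0012. Over all genes tested the shares were 17.3% and 19.3%, and over genes with a mean of at least 1000 counts 25.8% and 37.3%. DESeq2 called 34 hosts lower and 44 higher, and library size only gave 59 and 50. N4BP2L1 (-1.07) and TTC6 (-0.77) fell most, with 16 to 47 and 39 to 96 counts. The polyamine enzyme ODC1 (1.06) and the condensin subunit NCAPD2 (0.80) rose most. The plot of the lists places the 10 noncoding hosts beside them.

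**Figure D5:**
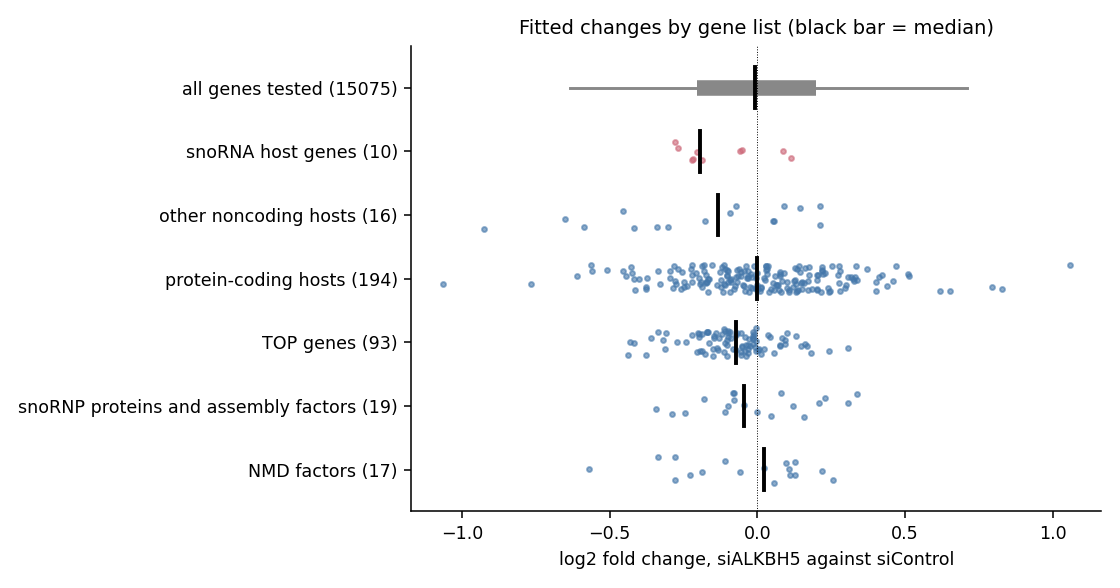
Log2 fold change of siALKBH5 against siControl for the 10 snoRNA host genes and 5 related lists, each point a gene and each black bar a median, with the number of genes tested in parentheses; for all genes tested the thick bar spans the 25th to 75th and the line the 5th to 95th percentile. The medians are -0.20 for the 10 hosts, -0.13 for the other noncoding hosts, -0.07 for the TOP genes and -0.01 for all genes.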

How the data were processed

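Per the labels and the methods, the authors selected poly-A RNA from HaCaT cells and sequenced it on an Illumina NovaSeq. The submitters' processing notes name CASAVA, HISAT2 2.0.5, featureCounts 1.5.0-p3, DESeq2 1.20.0 and hg38, and strand settings are not given in the sources used here. The deposited tables (1 per replicate) hold raw counts per gene, which were used unchanged. They also hold FPKM, which the authors scaled within each table and which were not used, and the authors' log2 fold changes and p-values for 1 library against 1, which were not used.

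Counts of the 4 libraries (16017502 to 18837807 each) went into a joint edgeR 4.0.16 fit under R 4.3.3 (filterByExpr filter, glmQLFit, glmQLFTest, no covariate), with TMM factors of 0.992 to 1.01, and siALKBH5 was compared with siControl with Benjamini-Hochberg adjustment over 15075 genes. edgeR's common coefficient of biological variation came to 0.0253. CPM are TMM-scaled. Calls needed an adjusted p under 0.05. A design of 2 against 2 cannot reach p under 0.05 by permutation, so no permutation test is given. Alternatives were DESeq2 1.42.0, its size factors in edgeR, scaling by library size alone, leaving out the filter, a filter at a mean of 10 counts, the study's threshold on the log2 fold change, a block for the replicate number, and omission of each library in turn. The steps were tested on simulated data. All 58735 gene coordinates equal those of GENCODE 29.

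The hosts and the gene lists were chosen with earlier results of these data known. Named are all 10 hosts, ALKBH5, every tested other noncoding host, genes overlapping a host, at most 5 snoRNA entries with counts, the 2 called genes with the largest rise and fall in each other list, and UPF1, SMG1, FBL, NOP56, NOP58 and DKC1. SNHG1 as a denominator, the limit of 1000 counts, NPM1 and PABPC1 were chosen after the values were seen. A few genes that the rule names are not reported here.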

Additional observations from a re-analysis of the deposited data

How the results depend on the processing

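GAS5, SNHG7, SNHG5 and ZFAS1 stayed called lower under all 10 alternative fits, with adjusted p-values of at most 0.028, and 0 hosts were called higher in any. The number of the 10 hosts called lower was 4 to 5 with a library left out and 0 under the study's threshold of a log2 fold change of 1. Leaving out a library gave -0.30 to -0.26 for GAS5, -0.32 to -0.21 for SNHG5, -0.23 to -0.21 for SNHG7 and -0.22 to -0.15 for ZFAS1. SNHG15 changed sign, with a range of -0.22 to 0.12, and was called in none of these fits. Of the other noncoding hosts 6 were called lower, and 4 to 5 with a library left out. Of the snoRNP factors, 1 was called lower in the reported fit, 0 by DESeq2, 2 with library size only, 0 without the filter and 0 to 1 with a library left out. For the NMD factors 7 were called lower, 4 by DESeq2 and 4 to 7 with a library left out. For the protein-coding hosts 52 were called lower and 34 by DESeq2. Over all genes 2610 were called lower and 2913 higher, against 1431 and 2052 by DESeq2, which gave an adjusted p to 13799 genes. Library size only moved the median of all genes from -0.01 to -0.03. Same-numbered libraries share a number and a deposited table, and the sources used here do not say whether they were paired. The correlation of their deviations was 0.090 over 10416 genes. With the replicate block SNHG8 became called (log2 fold change -0.20, adjusted p = 0.038), the hosts called lower numbered 5, and 2831 genes were called lower and 3091 higher. SNHG12 and SNHG15, with 116 to 163 counts per library, had the widest intervals of the 10 hosts. The cause of these differences was not tested.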

Other observations

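Of the ribosomal proteins in the TOP list, 49 of 79 tested were called lower (62.0%) and 9 higher (11.4%), with a median log2 fold change of -0.09. The other TOP genes, which are translation and RNA-binding factors such as NPM1 and PABPC1, had 5 lower and 5 higher of 14 (35.7% each). The difference between these groups was not tested. Leaving out the TOP genes, the protein-coding snoRNA hosts had 34 lower (21.0%) and 49 higher (30.2%) of 162, with a median of 0.03. Over all genes tested 17.3% were called lower and 19.3% higher. Among genes with a mean of at least 1000 counts these shares were 25.8% and 37.3%, and the ribosomal proteins had a median of 17132 counts. A TOP-like tract was present at the RefSeq start of 53.3% of the 15 other noncoding hosts and 42.4% of the 198 protein-coding hosts with a promoter. Of all 27305 promoters 33.3% had one.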
